A study of Mus musculus with 10 samples.

Results

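Cytosolic ribosomal protein genes encode the proteins of the 40S and 60S ribosomal subunits, which assemble with ribosomal RNA into the machine that translates mRNA. In mammals their mRNAs are among the most abundant in dividing cells, and many begin with a run of pyrimidines, the 5′ terminal oligopyrimidine (TOP) tract, through which the mTOR pathway adjusts their translation. The tissue best known for sensitivity to them is the red blood cell lineage, since inherited loss of 1 copy of several of these genes causes Diamond-Blackfan anaemia, a failure of erythroid progenitors. The members were chosen by symbol, as genes named Rpl, Rps, Rplp0 to Rplp2 or Rpsa, without the S6 kinases and the genes marked as pseudogenes. This gave 86 genes on the array out of 20660 genes named there, and the brightest probe stood for each gene.

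The cells were EML-C1, a mouse blood progenitor line that is grown in conditioned medium and can form erythroid and myeloid cells. Expression was measured on 10 single-colour arrays, 1 per condition, in cells given combined treatment, erythropoietin (EPO) or IL-3/GM-CSF, and in untreated cells at day 0. Each treatment gave 3 arrays: 1 of cells at day 6, for which no Sca1 fraction is labelled, and 1 for either Sca1 fraction, low or high, sorted at day 3. The series describes duplicate experiments, and the arrays used here are all labelled as replicate 1.

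The EPO cultures received 10 ng/ml EPO. The IL-3/GM-CSF cultures received 10 ng/ml IL-3 with 10 µM all-trans retinoic acid, and 10 ng/ml GM-CSF was given after day 3, so that the day 3 arrays of this treatment are of cells not yet given GM-CSF. The combined cultures received all of these, again with GM-CSF only after day 3. All cultures, the untreated one included, were of the same line in conditioned medium and horse serum, and the study names no separate clones or animals. Ly6a, which encodes Sca1, had levels of -2.80, -4.25 and -3.43 in the Sca1-low fractions of the combined, EPO and IL-3/GM-CSF cultures, against 1.89, 4.76 and 2.64 in the Sca1-high fractions, so the sort labels match the gene. A level here is the log2 processed intensity of a probe minus that of the array's 75th percentile, and a difference of 1 is a 2-fold difference. Because probes differ in brightness, levels are compared between arrays and never between genes.

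Of the 86 members, 82 were well above background on all 10 arrays, and 83 were so on at least 2 arrays and entered the tests. The other 3 were Rpl10l, Rpl39l and Rps4l, divergent copies of Rpl10, Rpl39 and Rps4x. Rpl10l and Rpl39l are known from mouse testis, and Rps4l is annotated as a transcribed pseudogene. By subunit, 47 members belong to the 60S subunit, 31 to the 40S subunit and 8 are divergent copies of another member. Members lie on 19 chromosomes, with the most, 14, on chromosome 7. The 176 probes of the family were never saturated and none was marked as an outlier spot.

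The start sites are shown because the TOP tract is the sequence by which these genes are best known. Those shown were picked, and include some of the longest runs and Rpl3l, the member called between the Sca1 fractions. RefSeq start sites on GRCm38.p6 were matched for 65 of the 86 members, 77 starts in all. Each line gives 20 bases before and 20 bases from the annotated start, 5′ to 3′ on the gene's strand, with the unbroken run of C and T that begins at the start in capitals.
Rpl27a, chr7:109519175-109519214, plus strand: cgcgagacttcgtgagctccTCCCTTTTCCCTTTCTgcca
Rpl15, chr14:18270967-18271006, minus strand: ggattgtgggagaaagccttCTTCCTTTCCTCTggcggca
Rpl35, chr2:39005112-39005151, minus strand: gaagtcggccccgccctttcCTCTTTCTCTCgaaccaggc
Rps10, chr17:27635225-27635264, minus strand: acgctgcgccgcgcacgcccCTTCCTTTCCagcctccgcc
Rps6, chr4:86857348-86857387, minus strand: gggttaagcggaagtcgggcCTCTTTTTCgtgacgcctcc
Rps21, chr2:180257359-180257398, plus strand: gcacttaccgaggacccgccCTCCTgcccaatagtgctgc
Rpl3l, chr17:24727806-24727845, plus strand: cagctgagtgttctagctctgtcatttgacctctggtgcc
Rpl39l, chr16:10170208-10170247, plus strand: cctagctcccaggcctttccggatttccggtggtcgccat

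A run of at least 5 C or T from the first base was present at 17 of the 77 member starts (22.1%), against 1457 of all 32851 starts in the table (4.44%). The run was 16 bases in Rpl27a, 13 in Rpl15, 11 in Rpl35, 10 in Rps10 and 9 in Rps6. Rps21 had a run of 5 at the start shown and of 1 at its other annotated start, while Rpl3l and Rpl39l had none at any annotated start. Many other members had none either, Rps19, Rplp0, Rpl5 and Rpl11 among them, so this does not set Rpl3l apart. A run that begins before or after the annotated start was not counted. These counts therefore do not say which mRNAs carry or lack a TOP tract. The letters CTTTCC, read in the direction of transcription within 50 bases on either side of the start, were found at 29.9% of member starts and 4.69% of all starts, among those shown at Rpl15, Rpl35, Rps10 and Rpl39l. The letters CCGGAAG, on either strand of the 300 bases around the start, were found at 35.1% of member starts and 8.86% of all starts. Where CTTTCC is followed directly by GGAAG the matches share the letters CC. These matches describe letters and not bound factors, and starts of 1 gene share sequence.

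As a family, ribosomal protein genes were highest in the EPO Sca1-low and EPO day 6 cells on the 75th percentile scale. The median level of the 83 tested members was 8.44, 8.62 and 8.30 in the combined day 6, Sca1-low and Sca1-high cells. It was 8.98, 9.34 and 8.49 in the corresponding EPO cells, 8.41, 8.53 and 8.56 in the IL-3/GM-CSF cells and 8.19 in untreated cells. EPO Sca1-low cells were therefore highest and EPO day 6 cells next, and the other 8 arrays spanned 8.19 to 8.62.

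**Figure D1:**
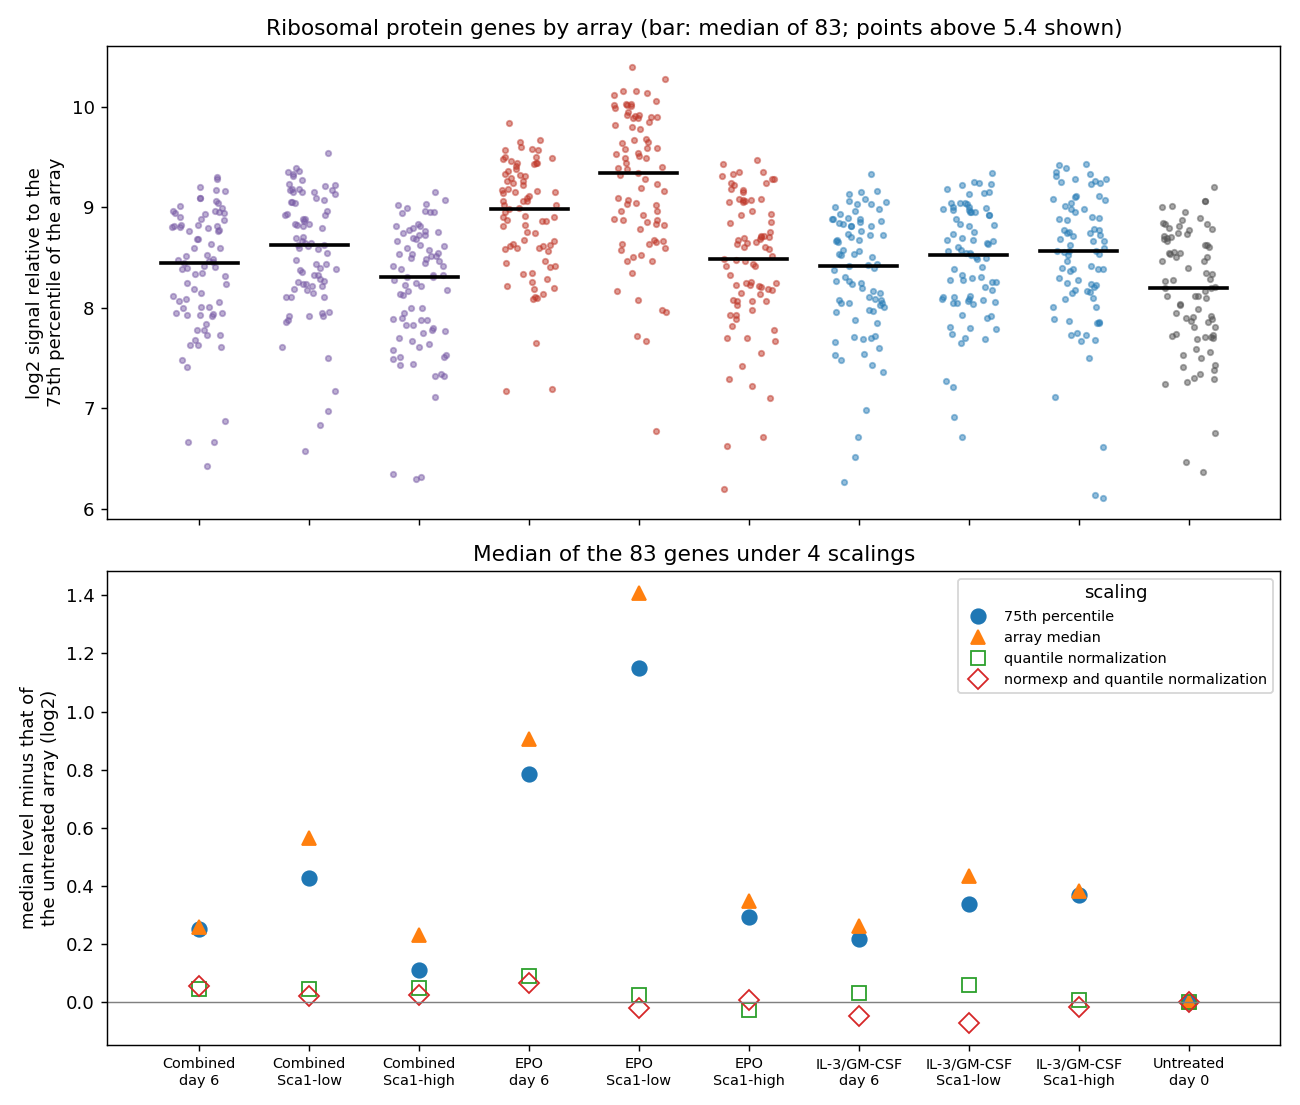
Upper panel, level of each ribosomal protein gene (points; log2 processed intensity over the array's 75th percentile) on each of the 10 arrays, with the median of the 83 genes as a black bar; Rpl3l and Rpl7l1 lie below the axis. Lower panel, the median of each array minus that of the untreated array (log2) under 4 scalings: the medians span 1.15 with the 75th percentile and 0.12 with quantile normalization.

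The size of this spread depended on the scaling. The 10 medians spanned 1.15 on the 75th percentile scale and 1.41 when arrays were centred on their median, but 0.12 after quantile normalization. Quantile normalization gives every array the same distribution of values, so genes at the same percentile of each array are by construction brought to nearly the same value. Before any scaling the median processed intensity of the members was 241223 in EPO day 6 cells and 200433 in EPO Sca1-low cells, and 215237 to 235763 on the other 8 arrays, untreated cells included. The 75th percentile of all spots was 478 in EPO day 6 cells and 309 in EPO Sca1-low cells, against 736 in untreated cells and 590 to 687 in the other 7 arrays. The arrays with the highest relative levels were thus those with the lowest 75th percentile, and the intensity of the members itself was not higher in EPO Sca1-low cells. How the share of the members in the RNA of these cells differed was not tested, and with whole populations fewer cells of a type and less RNA per cell cannot be told apart.

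**Figure D2:**
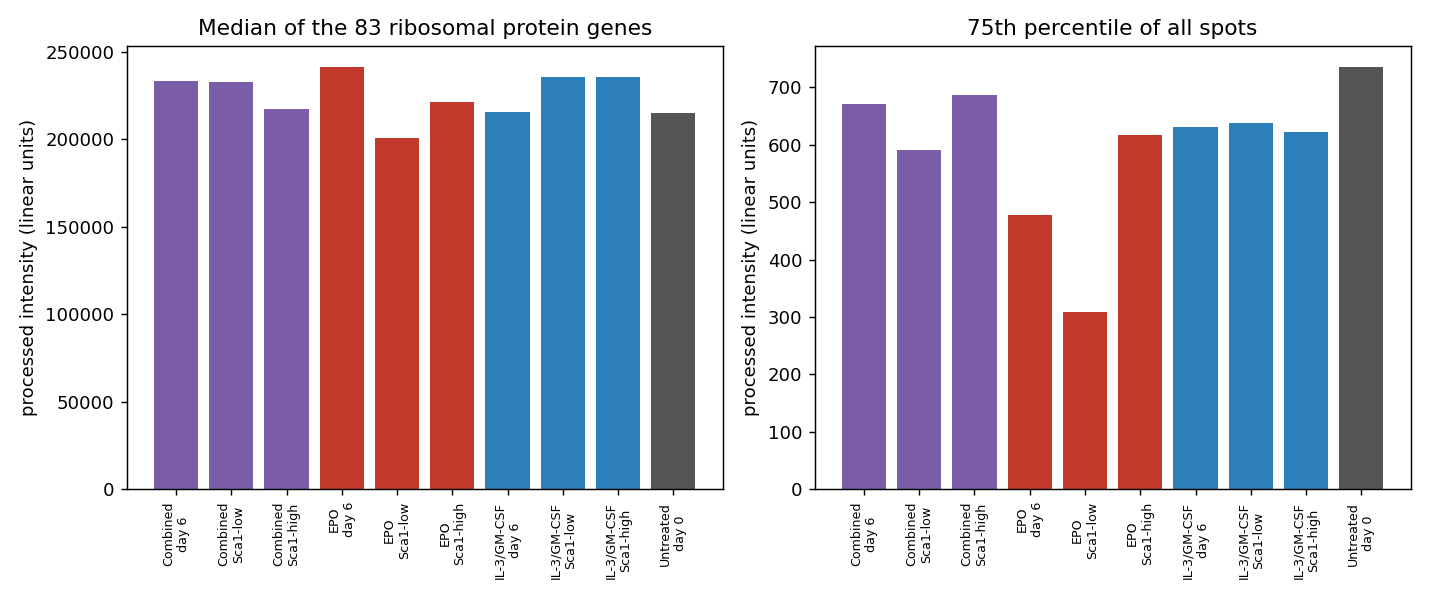
Bars show, for each of the 10 arrays, the median processed intensity of the 83 ribosomal protein genes (left) and the 75th percentile of the processed intensity of all non-control spots (right), in linear units from 0. The members vary between 200433 and 241223, while the 75th percentile is 309 in EPO Sca1-low cells and 736 in untreated cells.

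Erythroid marker genes differed between the same arrays. Of 12 erythroid markers 11 were found on the array, and all 11 were well above background in EPO day 6 and EPO Sca1-low cells, with mean levels of 5.81 and 5.13, against 10 of them with a mean level of 0.40 in untreated cells. Their summed signal, in multiples of the 75th percentile, was 2088 and 2157 in those EPO cells and 269 in untreated cells. In Sca1-low cells of the combined and IL-3/GM-CSF cultures the mean levels were 3.99 and 4.09, and the family medians of those arrays were 8.62 and 8.53. The share of tested genes well above background was 78.4% in EPO day 6 cells and 83.1% in EPO Sca1-low cells, against 89.6% in untreated cells and 86.4% to 94.9% elsewhere. The part of these measures in the levels of the members was not tested.

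Against untreated cells, each treated condition could be compared only array with array, with no test. At least 1.5-fold higher levels were found for 67 of the 83 members in EPO day 6 cells, with a median difference of 0.72, where 29.5% of all 14217 genes were that much higher. In EPO Sca1-low cells 74 members were that much higher, with a median difference of 1.16, where 35.3% of all genes were. After quantile normalization the median difference was 0.10 in EPO day 6 cells and 0.079 in EPO Sca1-low cells, and only 1 member of the EPO Sca1-low cells was still at least 1.5-fold higher. In EPO Sca1-high cells 3 members passed the fold (11.1% of all genes). In the combined Sca1-low cells 5 members did (20.5%) and in the IL-3/GM-CSF Sca1-high cells 2 did (18.2%). None did in combined day 6 cells (14.2% of all genes), combined Sca1-high cells (14.7%), IL-3/GM-CSF day 6 cells (17.9%) or IL-3/GM-CSF Sca1-low cells (20.2%). All 9 comparisons share the single untreated array.

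At day 3 Sca1-low cells were compared with Sca1-high cells over the 3 treatments, which asks whether the family differs with loss of the progenitor marker. Of the 83 members, 0 were called higher and 1, Rpl3l, was called lower in Sca1-low cells by limma at an adjusted p of 0.05 over all genes tested. At this threshold 4.09% of all genes were higher and 6.98% were lower. At an unadjusted p under 0.05, 4 members were higher and 1 was lower, against 16.9% and 14% of all genes. The median difference of the members was 0.38, against 0.17 for all genes, and 81 of the 83 were positive, against 8541 of all 14217 genes. By treatment the median differed, with 0.36 in combined, 0.81 in EPO and -0.080 in IL-3/GM-CSF cells. Of the 83, 26 members were higher in all 3 pairs, against 34% of all genes, and 1 was lower in all 3, against 20.9%. After quantile normalization the median difference was 0.037. With 3 pairs of single arrays and 2 residual degrees of freedom, these p-values take the spread between treatments as error, and they measure only the spread between these samples, which may be technical.

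**Figure D3:**
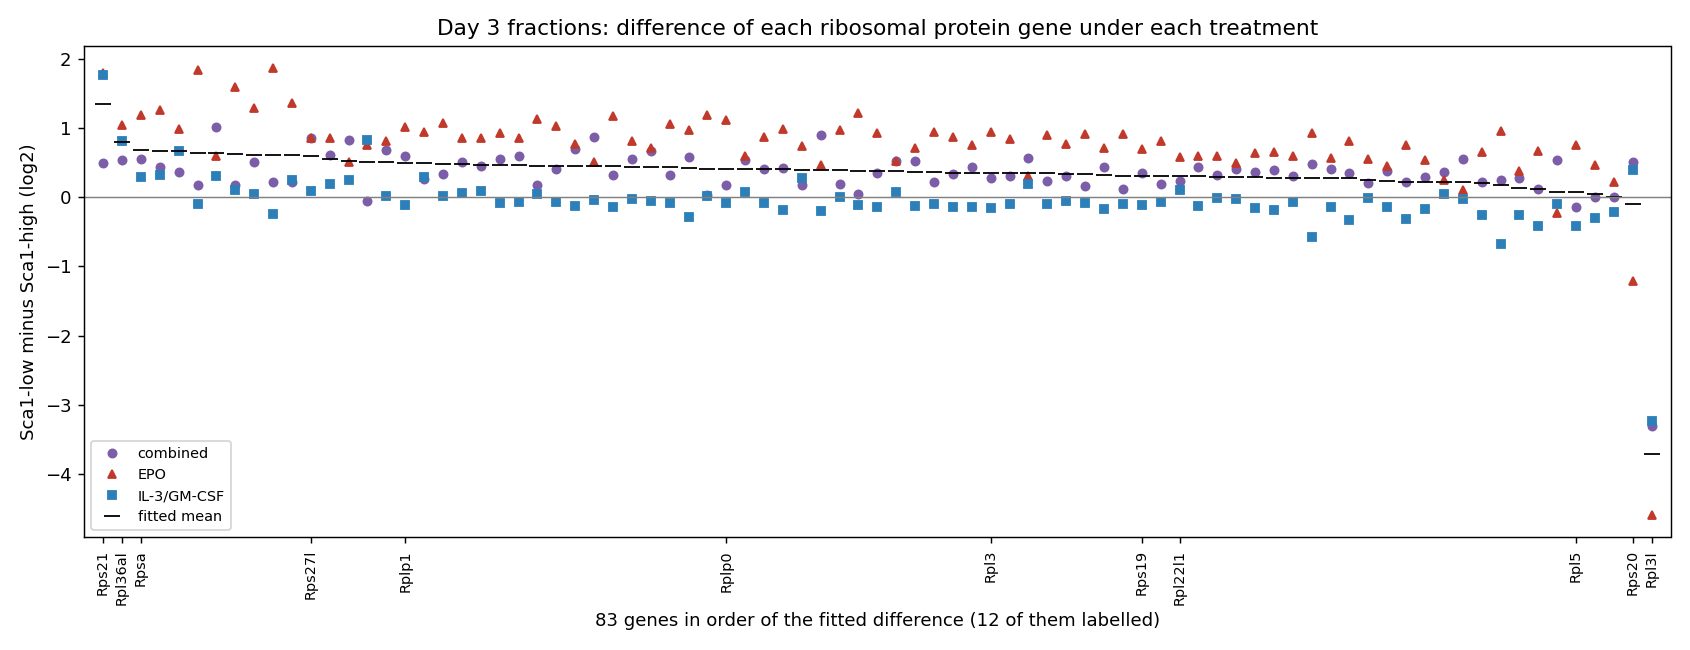
Difference in level, Sca1-low minus Sca1-high at day 3 (log2), of each of the 83 ribosomal protein genes in the combined, EPO and IL-3/GM-CSF cultures (coloured symbols, 1 pair of arrays each) and as fitted over the 3 pairs (black dash), ordered by the fitted value. Most EPO points lie above those of IL-3/GM-CSF, and Rpl3l at the right end is below -3 in every treatment, with Sca1-low signals that are not well above background.

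Rpl3l encodes a close relative of Rpl3 that replaces it in part of the ribosomes of heart and skeletal muscle. Its gene is at chr17:24727826-24736143 on GRCm38.p6. In Sca1-low cells its level was -6.39, -5.39 and -6.29 in the combined, EPO and IL-3/GM-CSF cultures, against -3.08, -0.79 and -3.06 in Sca1-high cells. It was -2.59 in combined day 6 cells, -5.57 in EPO day 6 cells, -2.49 in IL-3/GM-CSF day 6 cells and -0.63 in untreated cells. The untreated and the EPO Sca1-high array were the highest, and the 3 Sca1-low arrays and the EPO day 6 array were the lowest and not well above background. The Sca1-low and Sca1-high groups did not overlap. Here and below, the share of all genes whose groups do not overlap was not counted.

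Rpl3l was called lower in Sca1-low cells (limma adjusted p = 0.00934), in 3 of 3 pairs. It was well above background on 6 arrays, of which only the Sca1-high ones are day 3 arrays. It thus passed the filter only through arrays where it was high, and the p-value cannot be read as support. The fit used Sca1-low signals that are not well above background, so its measured difference of -3.71 is no size of the change. The fold is given as a bound, taken against the lowest signal well above background on each array. By this bound Rpl3l was at least 4.37-fold lower in Sca1-low cells, and by treatment at least 2.64-fold, 14.2-fold and 2.23-fold lower in the combined, EPO and IL-3/GM-CSF cultures. Against untreated cells the bound was at least 14.5-fold, 15.9-fold and 12-fold lower in the Sca1-low cells of these cultures, and at least 13-fold lower in EPO day 6 cells. EPO day 6 cells were also at least 3.34-fold lower than combined day 6 cells and at least 3.59-fold lower than IL-3/GM-CSF day 6 cells. The call was lost in limma with an additive model over all arrays (measured difference -3.71, adjusted p = 0.137) and without the IL-3/GM-CSF pair (-3.95, adjusted p = 0.0671). It was also lost with normexp followed by quantile normalization (-1.41, limma adjusted p = 0.0544). A single probe stands for Rpl3l.

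Rpl3 itself, which encodes the 60S protein near the peptidyl transferase centre, followed the family median closely. Its level was 8.24, 8.44 and 8.17 in combined day 6, Sca1-low and Sca1-high cells, 8.87, 9.20 and 8.26 in the EPO cells, 8.26, 8.26 and 8.42 in the IL-3/GM-CSF cells and 7.95 in untreated cells. When the family median of each array was taken off, its values spanned 0.16 over the 10 arrays, the narrowest range of the 83 members.

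**Figure D4:**
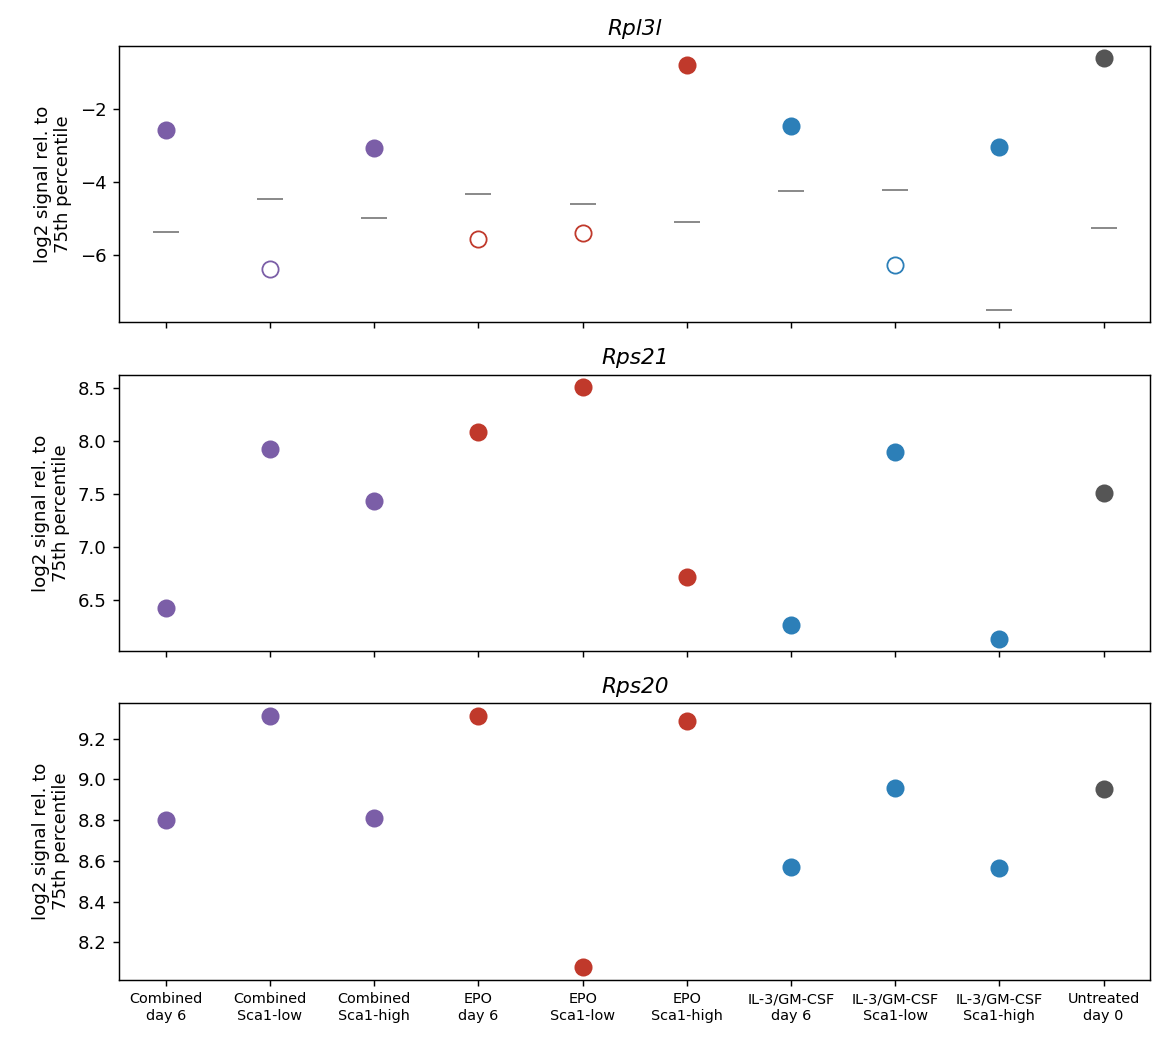
Level (log2 processed intensity relative to the 75th percentile of the array) of Rpl3l, Rps21 and Rps20 on each of the 10 arrays; open circles are not well above background, and the grey dashes for Rpl3l mark the lowest signal well above background on that array. Rpl3l is open in the 3 Sca1-low fractions and EPO day 6 cells, and Rps20 is lowest in EPO Sca1-low cells.

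Of the other 7 divergent copies, Rpl36al, Rps27l, Rpl22l1 and Rpl7l1 were well above background on all 10 arrays, Rpl10l was so on 1 array, and Rpl39l and Rps4l on 0. Rpl36al, an intronless copy of Rpl36a, came after Rps21 in its fitted difference between fractions, 0.80 (SE 0.22, limma adjusted p = 0.0886). Its levels were 6.83, 7.67 and 6.92 in Sca1-low cells of the combined, EPO and IL-3/GM-CSF cultures, against 6.30, 6.62 and 6.11 in Sca1-high cells. These groups did not overlap, in a gene picked for its high difference, and the share of all genes without overlap was not counted. Rpl36al had 6.67, 7.19 and 6.71 in day 6 cells of the same cultures and 6.47 in untreated cells. Rpl36a, from which it derives, had 8.11, 8.34 and 7.92 in Sca1-low cells, against 7.58, 7.82 and 7.85 in Sca1-high cells.

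Rps27l, a copy of Rps27 known as a p53 target, had levels of 7.17, 7.96 and 7.21 in Sca1-low cells of the combined, EPO and IL-3/GM-CSF cultures, against 6.32, 7.11 and 7.12 in Sca1-high cells. Its day 6 levels were 6.88, 7.65 and 6.99, against 6.76 in untreated cells. Rpl22l1, the copy of Rpl22, had 6.58, 6.78 and 6.72 in Sca1-low cells, against 6.34, 6.20 and 6.61 in Sca1-high cells. Rpl7l1, which resembles Rpl7, had 1.15, 1.56 and 1.09 in Sca1-low cells, against 0.13, 0.97 and 0.78 in Sca1-high cells. None of these passed the test.

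Of the 40S members, Rps21 had the largest SD after removal of the family median, 0.71. It had the highest fitted difference between fractions, 1.35 (SE 0.34, limma adjusted p = 0.0772), with levels of 7.92, 8.51 and 7.90 in Sca1-low cells of the combined, EPO and IL-3/GM-CSF cultures, against 7.43, 6.71 and 6.14 in Sca1-high cells. In day 6 cells it was 6.43, 8.09 and 6.27, and in untreated cells 7.51. The Sca1-low and Sca1-high groups did not overlap, in a gene picked for its high difference. The share of all genes without overlap was not counted. Combined and IL-3/GM-CSF day 6 arrays lay with the lowest Sca1-high ones. When only genes well above background on all 10 arrays were tested, Rps21 (adjusted p = 0.0153) and Rpl36al (0.0334) were called by limma, with unchanged differences. The share of all genes called under that filter was not counted, so these calls cannot be set beside it.

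Rps20, which encodes a 40S protein of the small subunit head, stood apart on 1 array. Its level was 8.08 in EPO Sca1-low cells, against 9.29 in EPO Sca1-high cells, and 8.56 to 9.31 on all other arrays. The family median was highest on that array, and Rps20 was the only member with a lower level there than on all 9 others. Its fitted difference between fractions was -0.10 (limma adjusted p = 0.881). Rps21, Rps20 and Rpl36al each have 1 probe on the array, so that no other probe can be set beside these values.

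**Figure D5:**
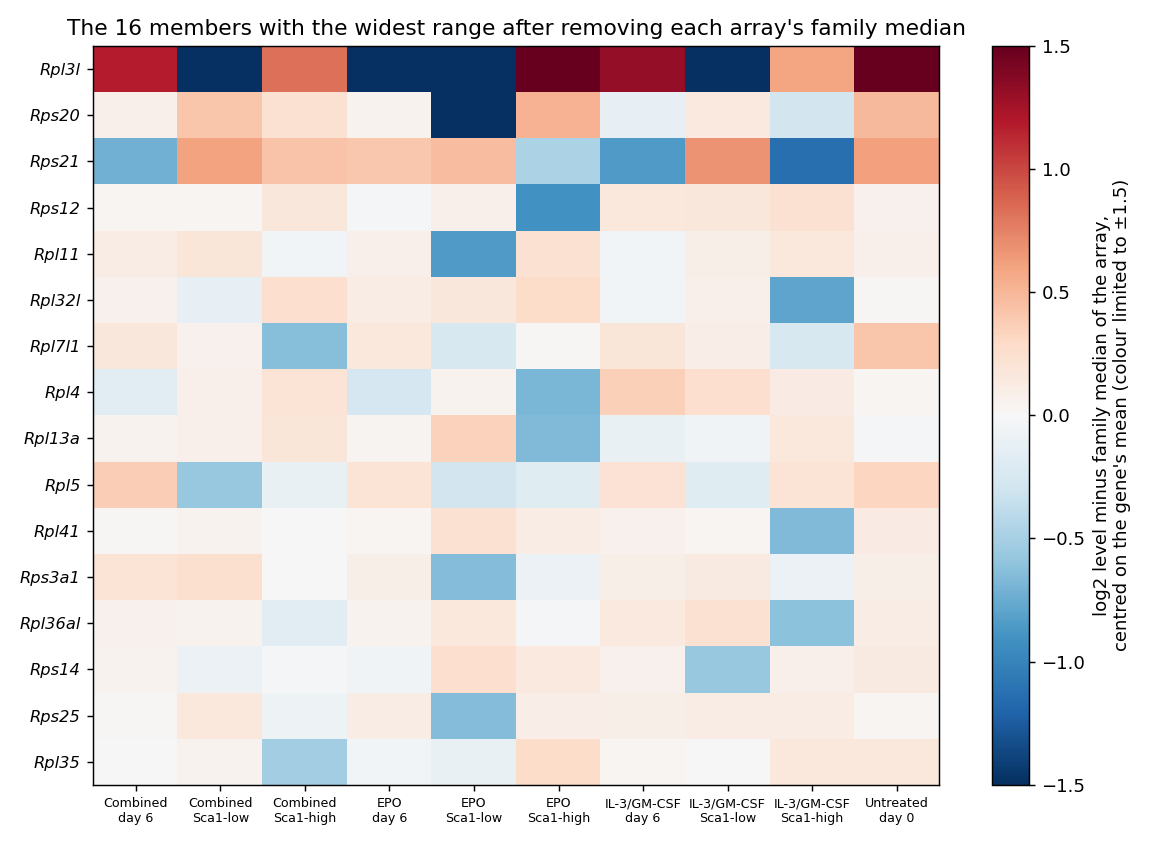
Level of the 16 ribosomal protein genes with the widest range, after the family median of each array was taken off and each gene was centred on its mean over the 10 arrays (log2, colour limited to ±1.5). Rpl3l is low in the 3 Sca1-low fractions and EPO day 6 cells, and Rps20 is low in EPO Sca1-low cells. By the probe used for each gene, Rps12, Rpl4 and Rpl13a are low in EPO Sca1-high cells.

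Where a member has several probes, they did not always give the same difference. Rps12 was 8.07 in EPO Sca1-high cells with the probe used and 9.21 with its other probe, against 9.91 and 9.93 in EPO Sca1-low cells. Rpl11 was 8.85 in EPO Sca1-low cells with the probe used, against 9.07 in EPO Sca1-high cells. Its other probes gave 9.03 and 9.21 in EPO Sca1-low cells, against 8.04 and 8.26 in EPO Sca1-high cells. Of the 51 members with several probes that were bright on all arrays, 20 had a lowest correlation between probes over 0.9 across the 10 arrays, and the values for Rps24, -0.18, and Rpl17, 0.039, were the lowest. Rpl17 has 7 probes.

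At the other end, 6 members moved almost exactly with the family. After removal of the family median the ranges over 10 arrays were 0.16 for Rpl3, 0.18 for Rps18, 0.19 for Rpl13, 0.21 for Rps15a, 0.22 for Rps19 and 0.24 for Rps4x. Rps19, the gene most often mutated in Diamond-Blackfan anaemia, had levels of 7.63, 7.86 and 7.51 in combined day 6, Sca1-low and Sca1-high cells, 8.26, 8.60 and 7.89 in the EPO cells, 7.69, 7.74 and 7.86 in the IL-3/GM-CSF cells and 7.42 in untreated cells. The highest 2 were the EPO Sca1-low and EPO day 6 cells, as for the family median. Of the 23 members linked to this anaemia, 0 were called in the fraction comparison by limma (4.09% of all genes higher, 6.98% lower), and 0 had an unadjusted p under 0.05 (16.9% higher, 14% lower). Their median difference between fractions was 0.30, against 0.38 for all members.

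High differences between fractions were also those of Rpsa (0.68) and Rpl41 (0.67), and neither was called by limma. Rpsa, which encodes the 40S protein also known as a laminin receptor, had 9.22, 9.90 and 8.96 in Sca1-low cells of the combined, EPO and IL-3/GM-CSF cultures, against 8.66, 8.72 and 8.67 in Sca1-high cells. The Sca1-low levels of Rpsa all lay above its Sca1-high levels, and the share of all genes for which this holds was not counted. The lowest differences beside those of Rpl3l, Rps20 and Rpl5 were 0.0027 for Rps29, a 40S protein, and 0.053 for Rpl10, a 60S protein. Rpl10 had 9.04, 9.80 and 8.95 in Sca1-low cells, against 9.04, 9.33 and 9.26 in Sca1-high cells, and its groups overlapped.

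Rpl5 and Rpl11 bind Mdm2, with 5S rRNA, when ribosome assembly fails. By the probe used for each, both were among the members with the lowest differences between fractions. Rpl5 had levels of 6.97, 7.98 and 7.27 in Sca1-low cells of the combined, EPO and IL-3/GM-CSF cultures, against 7.11, 7.22 and 7.68 in Sca1-high cells. Its fitted difference was 0.070 (limma adjusted p = 0.893), and the groups overlapped. The fitted difference of Rpl11 was 0.073 (limma adjusted p = 0.862).

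The stalk proteins recruit translation factors to the 60S subunit. Between fractions their genes differed in the same direction as the family median in each culture. After removal of the family median their ranges over the 10 arrays were 0.43 for Rplp0, 0.58 for Rplp1 and 0.37 for Rplp2. Rplp0, the stalk base, had levels of 9.34, 10.39 and 9.34 in Sca1-low cells of the combined, EPO and IL-3/GM-CSF cultures, against 9.16, 9.28 and 9.42 in Sca1-high cells. Rplp1 had 8.83, 9.85 and 8.66 in Sca1-low cells, against 8.23, 8.84 and 8.78 in Sca1-high cells. Rplp2 had 9.37, 10.16 and 9.25 in Sca1-low cells, against 8.81, 9.35 and 9.28 in Sca1-high cells. In each of the 3 genes the Sca1-low level was above the Sca1-high level in the combined and EPO cultures and not in the IL-3/GM-CSF culture.

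EPO was compared with IL-3/GM-CSF over the 3 populations, which sets the erythroid against the myeloid stimulus. No member was called by limma at an adjusted p of 0.05, where 0% of all genes were higher and 0.00703% lower. At an unadjusted p under 0.05, 15 members were higher and 0 lower, against 10.4% and 8.46% of all genes. The median difference was 0.45, against 0.10 for all genes, and 81 members were positive, against 8086 of all 14217 genes. It was 0.54 in day 6 cells and 0.85 in Sca1-low cells but -0.0075 in Sca1-high cells. After quantile normalization it was 0.015.

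The highest members of this comparison were Rps21, Rps2, Rpl32l, Rpl41 and Rps14. Rps2, which encodes a 40S protein at the mRNA entry, had levels of 9.12, 9.64 and 8.71 in EPO day 6, Sca1-low and Sca1-high cells, against 8.09, 8.04 and 8.62 in IL-3/GM-CSF cells. Its fitted difference was 0.90 (SE 0.31, limma adjusted p = 0.227). Rpl32l, which has a single probe, had 8.98, 9.40 and 8.65 in EPO cells, against 8.26, 8.49 and 7.67 in IL-3/GM-CSF cells, a difference of 0.87 (SE 0.24, adjusted p = 0.21). Whether its probe also binds Rpl32 transcripts was not tested. Rpl41, a very short 60S protein, had 9.50, 10.06 and 9.08 in EPO cells, against 8.96, 9.05 and 8.38 in IL-3/GM-CSF cells. The EPO and IL-3/GM-CSF levels of Rps2, Rpl32l and Rpl41 did not overlap. These genes were picked as the highest of this comparison, and the share of all genes without overlap was not counted. The lowest differences were those of Rpl4 (-0.11), Rps12 (-0.035) and Rpl3l (0.025), the last with 3 of its 6 arrays not well above background.

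The combined treatment was set against each single treatment over the 3 populations. Against IL-3/GM-CSF, 0 members were called by limma and 0 had an unadjusted p under 0.05, where 0% of all genes were called in either direction and 0.992% were higher and 0.844% lower at the unadjusted p. The median difference was -0.080, against -0.067 for all genes. Fitted differences lay between 0.49 (Rps21) and -0.34 (Rpl22). After Rps21 the highest were Rps20 (0.28), Rpl32l (0.27), Rpl6 (0.24) and Rpl41 (0.17), and the lowest after Rpl22 were Rps27l (-0.31), Rpl35 (-0.26), Rpl4 (-0.25) and Rps13 (-0.24). For Rpl22 the difference was -0.96 in Sca1-high cells, against -0.020 in day 6 and -0.052 in Sca1-low cells. Against EPO, 0 members were called, where 0% of all genes were lower and 0.00703% were higher. At an unadjusted p under 0.05, 25 members were lower and 0 higher, against 15.3% and 8.32% of all genes. The median difference was -0.52, against -0.14 for all genes, and 70 members were lower in all 3 populations, against 31.5% of all genes. After quantile normalization the median was -0.039. These 3 treatment comparisons share arrays, and the difference between the combined and the EPO comparison with IL-3/GM-CSF is the combined minus EPO comparison itself. The combined day 3 fractions and IL-3/GM-CSF day 6 cells were on slide 2. EPO and IL-3/GM-CSF day 3 fractions were on slide 3, and EPO and combined day 6 cells on slide 1. In pairs that cross slides, treatment and slide cannot be told apart.

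Among the lowest in combined against EPO cells were Rps2, Rplp1, Rps27l, Rps3 and Rpl28. Rplp1 had 8.49, 8.83 and 8.23 in combined day 6, Sca1-low and Sca1-high cells, against 9.30, 9.85 and 8.84 in EPO cells, a difference of -0.82 (SE 0.26, limma adjusted p = 0.168). Rps27l had 6.88, 7.17 and 6.32 in combined cells, against 7.65, 7.96 and 7.11 in EPO cells, a difference of -0.78 (SE 0.24, adjusted p = 0.163). In both genes each combined level was below the EPO level of the same population. Rps20 was the single member with a positive difference, 0.083, with 1.23 in Sca1-low cells and -0.51 and -0.48 in day 6 and Sca1-high cells, and the difference was -0.47 without EPO Sca1-low cells.

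Day 6 cells were compared with the mean of the day 3 fractions over the 3 treatments. No member was called by limma, as for 0% of all genes in either direction, and 0 members had an unadjusted p under 0.05, where 4.63% of all genes were higher and 5.01% lower. The median difference was -0.022, against -0.000909 for all genes. Fitted differences lay between -0.51 (Rps21) and 0.61 (Rpl3l). The value for Rpl3l is no size of a change, since its signal was not well above background in the 3 Sca1-low fractions and in EPO day 6 cells. Rpl5 came next with 0.42 (SE 0.25, adjusted p = 0.62), followed by Rpl7l1 (0.30), Rpl22l1 (0.25) and Rps3a1 (0.18). The lowest after Rps21 were Rps15 (-0.26), Rpl14 (-0.25), Rpl28 (-0.23) and Rpl24 (-0.20). With EPO day 6 cells left out, Rpl3l was called higher in day 6 cells (limma adjusted p = 0.0281), with its Sca1-low signals still not well above background.

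Other genes of the translation machinery were set beside the family in lists that hold no member. A translation list held translation factors and other genes with TOP mRNAs or related roles, Npm1, Hnrnpa1 and Nap1l1 among them. Of its 22 tested genes, 0 were called between fractions by limma (4.09% of all genes higher). At an unadjusted p under 0.05, 5 of them were higher (16.9%), and the median difference of the list was 0.46. Of 39 ribosome biogenesis genes, 1 was called higher by limma, against 4.09% of all genes, and 23 were higher at an unadjusted p under 0.05, against 16.9%. Their median difference was 0.71, and 36 were higher in all 3 pairs, against 34% of all genes.

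The biogenesis gene called was Gnl3, which encodes nucleostemin, a nucleolar GTPase of progenitor cells. Its levels were 4.14, 4.00 and 3.95 in Sca1-low cells of the combined, EPO and IL-3/GM-CSF cultures, against 2.70, 3.10 and 2.77 in Sca1-high cells, a difference of 1.18 (SE 0.22, limma adjusted p = 0.0398). Mrto4, which takes part in stalk assembly, had the highest difference, 1.27 (adjusted p = 0.0591), and Pes1, of the 60S assembly complex PeBoW, the lowest, -0.30 (adjusted p = 0.377). By treatment the list had medians of 0.87 in combined, 0.90 in EPO and 0.33 in IL-3/GM-CSF cells, where the family had 0.36, 0.81 and -0.080. A difference between the lists was not tested. In the comparison of EPO with IL-3/GM-CSF the biogenesis list had a median of 0.47 and the translation list of 0.45, against 0.45 for the family, and none of their genes was called. At an unadjusted p under 0.05, 10 biogenesis genes and 5 genes of the translation list were higher there, against 10.4% of all genes.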

How the data were processed

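The authors deposited scanner tables of 1-colour arrays that hold a processed intensity for each spot. Per the file headers, the extraction recorded statistics of background subtraction and detrending, and its settings are not given in the sources used here. The extraction software was Agilent Feature Extraction 11.0.1.1, per the submitters' processing notes. Values of the deposited series matrix were equal to these intensities on all 10 arrays. The precision is limited by the number of arrays, 1 per condition. Spots that were not controls (59305 of 62976 per array) were scaled as log2 intensity minus the 75th percentile of the array, outlier spots were left out and repeat spots were averaged. Repeat spots had an SD of 0.044 to 0.086. RefSeq accessions named 27235 of 55681 probes, and the brightest probe stood for a gene (20508 genes without missing values, 14217 tested as well above background on at least 2 arrays). No spot was saturated, so leaving out saturated members changed nothing.

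Tests used limma 3.58.1 in R 4.3.3, tested on simulated data, with Benjamini-Hochberg adjustment over all genes and a threshold of 0.05. Sca1-low was compared with Sca1-high over the 6 day 3 arrays with treatment as a block, and the other comparisons used an additive model of treatment and population over the 9 treated arrays (4 residual degrees of freedom). Slides were a planned block, and no treatment had its day 6 array on the slide of its day 3 arrays. The deposited files hold no mean signal column of the kind planned for normexp, so the median signal was used with an offset of 50.

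The members and lists were chosen with earlier results of these data known. By rule, the text names the 5 highest and 5 lowest members of each comparison and any called, the 6 widest and 6 narrowest ranges, divergent copies with the gene they copy, the stalk genes, Rpl5, Rpl11 and Rps19, and up to 3 genes at either end of each other list. Scaling to the family median was added after seeing the data. Probe-level values of Rps12, Rpl11 and Rpl13a were also chosen after their values were seen. Duplicate experiments that the series describes were not analysed here. The marker lists for neutrophils and monocytes, progenitors, mast cells and basophils, megakaryocytes, eosinophils and lymphoid cells were measured as well, and their values are among the other observations. Some genes that the rule names are not reported here.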

Additional observations from a re-analysis of the deposited data

Results flagged for a closer look

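The comparisons between treatments below rest on single arrays that moved in opposite directions in different populations by more than 1.5-fold, and none of these differences was tested. In the Sca1-low minus Sca1-high comparison, Rps14 was 0.96 in EPO cells and -0.68 in IL-3/GM-CSF cells.

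In EPO minus IL-3/GM-CSF, Rpl13a was 0.72 in day 6 cells, 1.21 in Sca1-low cells and -0.90 in Sca1-high cells. Rpl3l was measured at -3.09 in day 6 cells and at 2.26 in Sca1-high cells. Its EPO day 6 signal was not well above background, and the nominal bound there is 3.59-fold lower. Rpl4 was 0.60 in Sca1-low cells and -0.88 in Sca1-high cells, and Rps12 was 0.72 and -1.22 in these fractions. These values are of the probes used. With the other probe of Rps12, EPO and IL-3/GM-CSF Sca1-high cells had 9.21 and 9.09. With the other probes of Rpl13a they had 5.38 and 5.46, and 5.22 and 5.58. Rps20 was 0.74 in day 6 cells, -0.88 in Sca1-low cells and 0.72 in Sca1-high cells.

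In combined minus EPO, Rpl13a was -0.99 in Sca1-low cells and 0.66 in Sca1-high cells, Rpl4 was -0.70 and 0.71, and Rps12 was -0.77 and 0.89 in these fractions. Only the probes used gave the opposite directions of Rpl13a and Rps12. The other probes of Rpl13a had 4.74 and 4.85 in combined Sca1-high cells, against 5.38 and 5.22 in EPO Sca1-high cells. For the other probe of Rps12 the levels there were 8.84 and 9.21. Rpl3l was measured at 2.98 in day 6 cells, where the nominal bound is 3.34-fold higher, and at -2.29 in Sca1-high cells. Rps21 was -1.66 in day 6 cells, -0.59 in Sca1-low cells and 0.72 in Sca1-high cells. In day 6 minus day 3, Rpl3l was 2.14 in combined, -2.49 in EPO and 2.19 in IL-3/GM-CSF cells, measured values that include Sca1-low and EPO day 6 signals not well above background. The EPO arrays enter all of the treatment comparisons in this paragraph and the one before.

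A probe that no comparison used gave a signal above background. A second probe of Rpl10l had a level of -3.12 in combined Sca1-low cells, well above background, and -6.75 in untreated cells, where it was not. The probe of Rpl10l used for the gene had -5.53 and -5.16 on these arrays.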

How the results depend on the processing

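No paired analysis was possible because every label says replicate 1, so the replicate number pairs no arrays. The models instead match arrays by treatment or population. Below, normexp means normexp followed by quantile normalization, and values of Rpl3l include signals not well above background. The family was about equally high on all arrays after quantile normalization, with or without normexp, and unequal on scales set by the 75th percentile or the median. The highest and lowest family medians were 0.12 apart after quantile normalization, 0.14 with normexp, 1.41 with median centring and 1.02 with the mean of all probes. Against untreated cells, the quantile medians were 0.049, 0.042, 0.10, 0.079, 0.069, 0.026, 0.068 and 0.091 in combined day 6, combined Sca1-low, EPO day 6, EPO Sca1-low, EPO Sca1-high, IL-3/GM-CSF day 6, IL-3/GM-CSF Sca1-low and IL-3/GM-CSF Sca1-high cells. With normexp as well they were 0.040, 0.044, 0.10, 0.065, 0.057, 0.0073, 0.075 and 0.062. With median centring they were 0.52 in combined Sca1-low, 0.14 in combined Sca1-high, 0.84 in EPO day 6 and 1.42 in EPO Sca1-low cells. At 2-fold, 56 members were higher in EPO Sca1-low cells (21% of all genes), 2 in EPO day 6 cells (15.2%) and 0 in combined Sca1-low (11%), EPO Sca1-high (4.5%) and IL-3/GM-CSF Sca1-high cells (10.1%).

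For Sca1-low minus Sca1-high, 2 of 82 members were called higher when all 10 arrays had to be above background. The share of all genes called with that filter was not counted. The count called lower was 0 with that filter, which removes Rpl3l by construction, with normexp and with the additive model over all arrays, and 0 to 1 when each pair of fractions was left out, with 0 without the IL-3/GM-CSF pair. Scaled to the family median, the median difference was -6.68e-05, by construction near 0. The combined minus EPO median was -0.039, -0.031 and -0.038 with quantile normalization, normexp and family scaling, and the combined minus IL-3/GM-CSF median was 0.0073 with normexp and -0.24 to 0.11 with an array left out. The day 6 minus day 3 median was 0.020, 0.022 and 0.0074 with quantile normalization, normexp and family scaling, -0.18 with slide as a block, and -0.13 to 0.062 with an array left out. There 1 member, Rpl3l, was called higher with slide as a block (6.81, adjusted p = 0.0344) and without EPO day 6 cells (2.16, adjusted p = 0.0281), so the count was 0 to 1 with an array left out. The slide block rests on treatment and population being additive, and the untreated array shares its slide with EPO and combined day 6 cells. The cause was not tested for any of these changes.

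Of 935 values of named genes under alternatives, 848 kept sign and side of the threshold, 3 lost and 4 gained a call, and 80 changed sign, none of which passed the test after the change. Sca1-low minus Sca1-high changed sign for Rpl5, Rpl10 and Rps29 with quantile normalization (-0.21, -0.32, -0.34), normexp (-0.15, -0.37, -0.39) and family scaling (-0.31, -0.33, -0.38), and for Rps29 with the series matrix (-0.000648). With a pair left out, the ranges were -0.28 to 0.31 for Rpl5, -0.15 to 0.23 for Rpl10, -0.10 to 0.11 for Rps29 and -0.41 to 0.45 for Rps20.

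EPO minus IL-3/GM-CSF changed sign for Rps3a1, Rpl22l1 and Rpl3l with quantile normalization (-0.19, -0.20, -0.19) and family scaling (-0.26, -0.33, -0.41). Rps3a1 and Rpl22l1 did so with normexp (-0.17, -0.26), slide as a block (-0.022, -0.18) and the day 3 fractions alone (-0.022, -0.18). Rps12 did so with median centring (0.058) and the mean of all probes (0.32). With an array left out, Rpl3l ranged from -1.08 to 1.57, Rps12 from -0.39 to 0.51, Rpl4 from -0.42 to 0.30 and Rpl22l1 from -0.12 to 0.31.

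Combined minus IL-3/GM-CSF changed sign for Rpl3l with normexp (0.021) and slide as a block (4.56), for Rpl6 with the mean of all probes (-0.056), and for Rps21 and Rps20 with slide as a block (-1.07, -0.59). With an array left out, Rps20 ranged from -0.029 to 0.53, Rpl3l from -0.84 to 0.71 and Rps21 from -0.017 to 0.86. Combined minus EPO changed sign for Rpl3l, Rps3a1, Rps12 and Rpl4 with quantile normalization (0.19, 0.31, 0.37, 0.35) and family scaling (0.38, 0.36, 0.36, 0.34). Rps3a1, Rps12 and Rpl4 did so with normexp (0.33, 0.37, 0.31) and the day 3 fractions alone (0.031, 0.059, 0.0051). Rps20 and Rpl3l did so with slide as a block (-0.51, 2.98). With an array left out, Rps20 ranged from -0.47 to 0.37, Rpl3l from -1.65 to 1.00, Rps12 from -0.67 to 0.23, Rpl4 from -0.55 to 0.17 and Rps3a1 from -0.22 to 0.054. Day 6 minus day 3 changed sign for Rpl22l1, Rps3a1 and Rpl14 with slide as a block (-0.63, -0.51, 0.13), and Rpl3l ranged from -0.17 to 2.16 with an array left out.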

Other observations

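Marker lists of other cell types differed between the arrays as follows. The 12 neutrophil and monocyte markers had mean levels of 6.49 in combined day 6 cells and 7.01 in IL-3/GM-CSF day 6 cells, against -0.16 in untreated cells. The 8 progenitor markers had mean levels of -0.60, -1.73 and -0.53 in Sca1-low cells of the combined, EPO and IL-3/GM-CSF cultures, against 2.08, 2.70 and 2.21 in Sca1-high cells. Over the 10 arrays the mean level of the 7 mast cell and basophil markers lay between -1.74 and 2.79, that of the 7 megakaryocyte markers between -0.40 and 1.17, that of the 5 eosinophil markers between -3.57 and -0.26, and that of the 7 lymphoid markers between -3.42 and -1.96. Rpl3l was well above background on the 6 arrays with mast cell and basophil levels of 0.048 to 2.79, and not on the 4 arrays with levels of -1.74 to -0.86. The same split held for the progenitor markers, with 1.76 to 2.70 on the 6 arrays and -1.73 to -0.53 on the other 4. It also held for the eosinophil markers, with -2.79 to -0.26 against -3.57 to -3.40, but only 2 of these 5 markers were well above background on each of the 4 arrays. Erythroid markers split the opposite way, with -2.62 to 1.55 on the 6 arrays and 3.99 to 5.81 on the other 4. No such split was seen for the remaining lists. Neutrophil and monocyte markers had -0.16 to 7.01 on the 6 arrays and -1.08 to 0.37 on the other 4. Megakaryocyte markers had -0.028 to 1.17 and -0.40 to 0.020, and lymphoid markers -2.90 to -2.21 and -3.42 to -1.96. These values are a description, and their relation to Rpl3l was not tested.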
